A study of Mus musculus with 6 samples.

Results

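Fibroblast growth factors (FGFs) and their receptors were examined in cultured mouse cochleae by RNA sequencing. The genes were taken by symbol from the table of counts, 6 ligands (Fgf1, Fgf2, Fgf8, Fgf9, Fgf10 and Fgf20) and 4 receptors (Fgfr1, Fgfr2, Fgfr3 and Fgfrl1), and all 10 were present among the 24421 symbols. Wild-type cochlear explants from postnatal day 2 were cultured for 12 h, and the neomycin group then received 1 mM neomycin, an aminoglycoside antibiotic that is toxic to hair cells (HCs), for 6 h. Culture went on for another 5 days with EdU, a thymidine analogue that marks DNA synthesis, at 10 μM. Control explants are taken here as those without neomycin, because their treatment label says control, although the protocol text of all 6 samples mentions the drug. Each group had 3 samples, each a pool of 6 to 8 cochleae, and per the study's methods the dissection took away the tectorial membrane, the modiolus and the anlage of the stria vascularis. The labels give neither the mouse strain nor whether the pools came from separate litters or culture days.

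FGF ligands bind receptor tyrosine kinases together with heparan sulfate, and the activated receptors signal through RAS and the kinase ERK, which switches on ETS transcription factors and inhibitors of the pathway itself. Fgfrl1 binds ligands but lacks the kinase domain. In the developing cochlea, Fgf20 and Fgf9 are known for acting on the progenitors of the sensory epithelium and the surrounding mesenchyme, Fgf10 is made in the greater epithelial ridge, and Fgf8 from inner HCs signals to Fgfr3 on neighboring supporting cells (SCs), where it promotes pillar cell development.

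Total counts ran from 50471116 to 66068108 per sample. All 10 genes passed the filter on low counts, as did 15988 genes in all. Levels are given as CPM, counts scaled to a common library size by the TMM method, and per kilobase of exon where genes are compared with each other. A call required a fold change over 1.5 together with an adjusted p under 0.05 (edgeR quasi-likelihood test, Benjamini-Hochberg adjustment over all genes tested). Explants of both groups held the markers of the organ of Corti. Of the 23 HC markers tested 18 were called lower after neomycin and 0 higher, beside 6.6% and 2.24% of all genes.

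Of the 10 FGF genes, Fgf8 and Fgfr3 were called, both lower after neomycin, against 6.6% of all genes tested that were called lower and 8.84% called in either direction. None was called higher by edgeR, DESeq2 or limma-voom or had an unadjusted p under 0.05 as higher, against 2.24% of all genes called higher. Without the fold threshold, Fgfrl1 and Fgf1 were also lower, so that 4 of 10 passed an adjusted p under 0.05 (edgeR), beside 29% of all genes in either direction and 16.1% lower. The groups did not overlap for the same 4 genes, all lower, against 22.5% of all genes without overlap on the lower side, 21% on the higher side and 43.5% on either. For 8 genes the log2 fold change was below 0 and for 2 it was above, with a median of -0.34 against -0.004 for all genes tested.

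**Figure D1:**
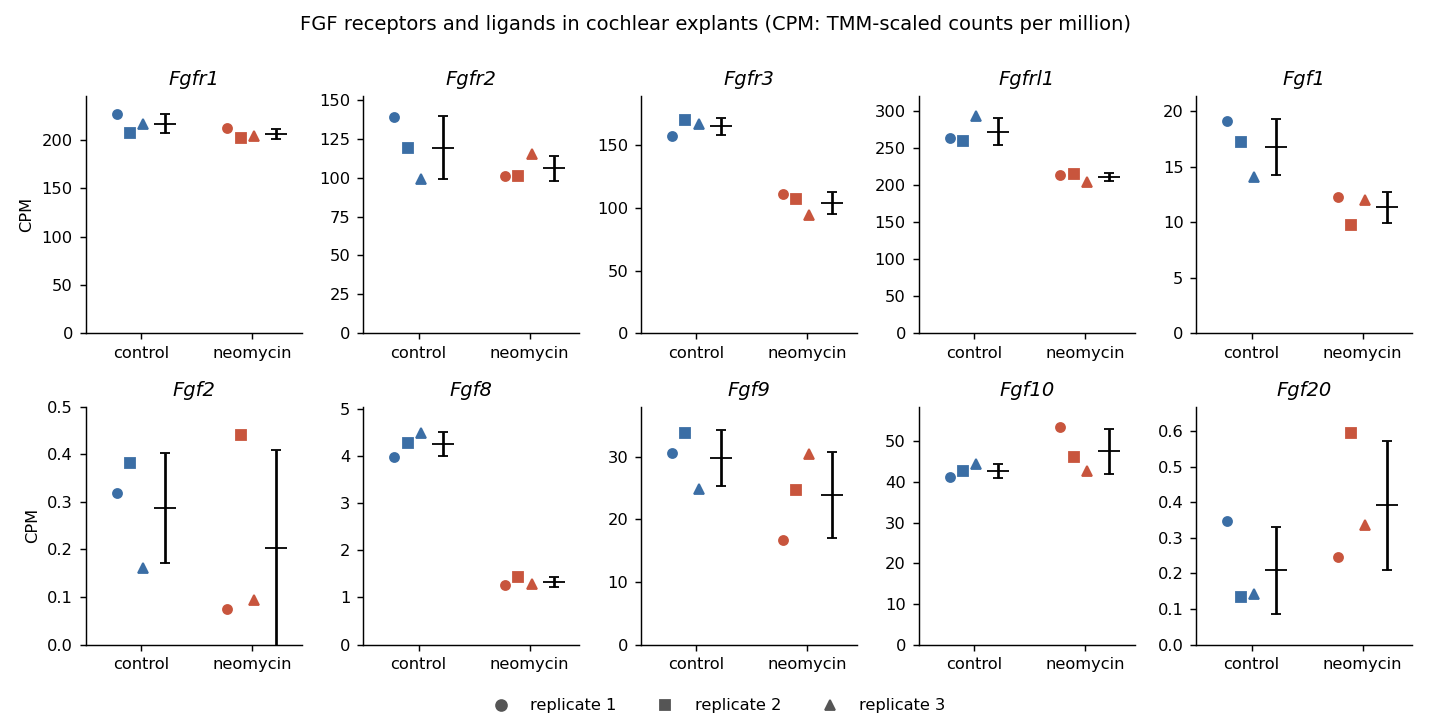
CPM of the 10 FGF genes in each sample, with replicate numbers as symbols, control in blue and neomycin in red, and black bars for mean ± SD (n = 3); each panel has its own axis from 0, and the lower bar of Fgf2 after neomycin ends at the axis. Fgf8, Fgfr3, Fgfrl1 and Fgf1 are the panels in which all neomycin samples lie below all control samples.

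The start regions of Fgfr3 and Fgfrl1, both lower after neomycin, and of Fgf10, which was not called, are shown so that the letters before a lower gene can be set beside those before one that was not lower. They are RefSeq sequences. The bases run from 250 to 51 before the annotated start, on the plus strand of GRCm38.p6, and capitals mark matches to the E-box CANNTG, the motif of basic helix-loop-helix factors. The Fgfr3 window is chr5:33721474-33721673, the Fgfrl1 window chr5:108693979-108694178 and the Fgf10 window chr13:118714449-118714648.
Fgfr3: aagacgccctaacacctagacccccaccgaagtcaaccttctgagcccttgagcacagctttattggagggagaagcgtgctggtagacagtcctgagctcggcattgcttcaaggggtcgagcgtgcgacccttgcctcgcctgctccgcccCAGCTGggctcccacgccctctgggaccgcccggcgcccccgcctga
Fgfrl1: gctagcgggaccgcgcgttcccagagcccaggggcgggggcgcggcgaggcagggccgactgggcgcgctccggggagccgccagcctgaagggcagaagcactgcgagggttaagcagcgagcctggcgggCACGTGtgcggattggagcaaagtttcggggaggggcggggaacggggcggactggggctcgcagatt
Fgf10: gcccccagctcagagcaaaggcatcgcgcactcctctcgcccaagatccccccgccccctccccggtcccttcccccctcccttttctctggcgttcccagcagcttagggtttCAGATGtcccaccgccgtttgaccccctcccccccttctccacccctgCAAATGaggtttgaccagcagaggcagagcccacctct
Fgfr3 held 1 E-box, at -97 from its first annotated start, and that window overlaps 1 annotated exon. A second annotated start of Fgfr3, with its window at chr5:33722056-33722255, held 0 E-boxes. That window lies inside the span of the gene and overlaps 1 annotated exon. Fgfrl1 held 1, at -118, with the letters CACGTG. Fgf10 held 2, at -136 and -88. E-boxes were in 59.1% of the 32841 windows of this length and CACGTG in 4.34%. Entries were also found for Fgfr2, which was not called and held 1 E-box at -235, and for Fgf2 and Fgf9, which held 0. The Fgf2 window reaches into the span of the gene and overlaps 1 annotated exon, and the Fgf9 window lies inside the span of its gene. No entry was found for Fgf8, Fgfr1, Fgf1 or Fgf20. Neither the TEAD core GGAATG, in 10.7% of all windows, nor the ETS site CCGGAAGT, in 1.4%, was matched on either strand in any of the windows read for these genes. A match is only a match of letters, and none of the samples measured binding.

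Fgf8, the ligand that inner HCs release, had the largest fall of the 10 genes. It stood at 3.99, 4.29 and 4.50 CPM in control replicates 1, 2 and 3 and at 1.26, 1.44 and 1.28 CPM in neomycin replicates 1, 2 and 3, from 67 to 85 counts per library after neomycin. Every neomycin sample lay below every control sample, and the spread within each group was small beside the gap. The mean went from 4.26 ± 0.26 to 1.33 ± 0.0974 CPM (SD, n = 3), which was 3.2-fold lower. The change was -1.68 on the log2 scale (standard error 0.20, 95% interval -2.11 to -1.24, edgeR adjusted p = 0.00013). Fgf8 lies on chromosome 19 from 45736491 to 45742941, on the minus strand.

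The inner HC markers moved in the same direction as Fgf8. All 4 of 4 were called lower, beside 6.6% of all genes. Among them were Otof, the synaptic protein otoferlin (-2.34), the calcium pump gene Atp2a3 (-3.44) and Slc7a14 (-1.32, all log2 fold changes). The summed level of the 4 markers was 138.8 to 160.2 CPM in control and 23.4 to 35.5 CPM after neomycin, with no marker at 0 in all samples. Of 5 outer HC markers 3 were called lower, and the summed level of the list went from 291.0 to 430.0 CPM down to 45.5 to 54.6 CPM, most of it Ocm at 302.9 and 28.6 CPM. For the 14 markers of both HC kinds the summed level was 573.6 to 630.0 CPM against 330.3 to 401.8 CPM, with 11 called lower. The largest part of that sum was Myo6, named after its values were seen and not called, at 211.0 and 164.4 CPM. Atoh1 and Rbm24 of the same list, also named after their values were seen, had log2 fold changes of -0.05 and -0.04 (adjusted p = 0.9 and 0.829, edgeR). The part of HC number in the Fgf8 result was not tested, and in whole explants fewer cells of a type and less RNA per cell cannot be told apart.

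Over the 6 samples, the tested genes whose centred log2(CPM + 0.5) lay nearest to that of Fgf8 were Nhlh1 at a Euclidean distance of 0.224, Kcnmb2 at 0.229 and Fam167b at 0.285. Nhlh1, a basic helix-loop-helix factor, was at a mean of 4.12 CPM in control and 1.25 CPM after neomycin. Kcnmb2, a subunit of the large-conductance potassium channel, was at 8.63 and 2.80 CPM.

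Fgf1, an FGF that can bind all of the kinase receptors, lay just outside the fold threshold. Its levels were 19.1, 17.2 and 14.1 CPM in the control replicates and 12.3, 9.71 and 12.0 CPM after neomycin. The groups did not overlap, although control replicate 3 stood close to the highest neomycin sample. Its log2 fold change was -0.57 (standard error 0.13, 95% interval -0.86 to -0.28, adjusted p = 0.00764, edgeR), a fold of 1.49. It passed 1.5-fold when control replicate 3 was left out (-0.67) or neomycin replicate 1 (-0.63) or 3 (-0.62), and with scaling by library totals only (-0.64). The change was weakest once the trend of the log ratios on exon length was removed (-0.43). It was also weaker without control replicate 1 (-0.46) or neomycin replicate 2 (-0.47, edgeR adjusted p = 0.0456). Fgf1 lies on chromosome 18 from 38838672 to 38929470 on the minus strand, inside the span of Arhgap26 on the opposite strand, whose exons share 0 bases with it in the annotation used. Arhgap26 was at 12.6 ± 1.26 CPM in control and 9.05 ± 1.6 CPM after neomycin (log2 fold change -0.48, standard error 0.14, edgeR adjusted p = 0.0251). Gm5820, which also overlaps Fgf1, was below 0.3 CPM in every sample.

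The other ligands did not pass the test. Fgf9, an epithelial ligand that signals to mesenchyme, was at 30.7, 33.8 and 24.9 CPM in control and 16.7, 24.7 and 30.4 CPM after neomycin. Neomycin replicate 1 was the lowest of the 6 samples, while neomycin replicate 3 lay inside the control range. Its log2 fold change was -0.32 (95% interval -0.70 to 0.06, adjusted p = 0.194, edgeR). Without neomycin replicate 3 it was -0.52 (edgeR adjusted p = 0.0403), and without neomycin replicate 1 it was -0.11 (adjusted p = 0.558).

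Fgf10, a ligand of Fgfr2, had 41.1, 42.6 and 44.4 CPM in the control samples and 53.5, 46.2 and 42.7 CPM in the neomycin samples. Neomycin replicate 1 was high, and replicate 3 lay among the controls. The log2 fold change was 0.15 (standard error 0.09, 95% interval -0.04 to 0.34, adjusted p = 0.209, edgeR), so the interval reached no fall larger than 0.04.

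Fgf2 and Fgf20 were at the bottom of the measured range. Fgf2 had 22, 20 and 9 counts in control and 4, 26 and 5 after neomycin, and the highest and lowest values of all were both neomycin samples. Its log2 fold change of -0.47 had an interval from -1.95 to 1.00 (adjusted p = 0.636, edgeR), and it was -1.74 without neomycin replicate 2. Fgf20, a ligand of Fgfr1 in the prosensory domain, had 24, 7 and 8 counts in control and 13, 35 and 18 after neomycin. Control replicate 1 lay above 2 of the neomycin samples. The log2 fold change of Fgf20 was 0.88 (95% interval -0.34 to 2.09, adjusted p = 0.26, edgeR), and neither gene passed the test.

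The 3′ end of Fgf2, on chromosome 3 from 37348477 to 37410106, shares 640 exon bases with Nudt6 on the opposite strand. Nudt6, with 4.81 ± 0.204 CPM in control and 5.35 ± 0.0773 CPM after neomycin, was well above Fgf2, and the strand setting of the counting is not given in the sources used here. The share of such reads in the Fgf2 counts was not tested.

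Per kilobase of exon, the control order of the ligands was Fgf10 at 10.4 ± 0.408 CPM per kb, Fgf9 at 6.64 ± 0.999, Fgf1 at 3.24 ± 0.49, Fgf8 at 3.16 ± 0.192, Fgf20 at 0.124 ± 0.0721 and Fgf2 at 0.0441 ± 0.0176 CPM per kb (SD, n = 3). Fgf1 and Fgf8 were the only neighbors whose control samples overlapped. After neomycin Fgf10 stood at 11.5 ± 1.34 and Fgf9 at 5.33 ± 1.53 CPM per kb. Fgf1 was then at 2.19 ± 0.272 and Fgf8 at 0.984 ± 0.0721 CPM per kb, without overlap. The order of the ligands was the same in both groups.

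Fgfr3, the kinase receptor of SCs including pillar and Deiters' cells, was the only receptor called. It had 157.7, 170.6 and 167.2 CPM in control replicates 1, 2 and 3 and 111.1, 107.5 and 94.3 CPM after neomycin. The groups were well apart, and neomycin replicate 3 was the lowest. The mean went from 165.1 ± 6.70 to 104.3 ± 8.87 CPM (SD, n = 3), or 1.58-fold lower. On the log2 scale the change was -0.66 (standard error 0.08, 95% interval -0.83 to -0.49, edgeR adjusted p = 0.000129). Once the trend of the log ratios on exon length was removed the log2 fold change was -0.57 (edgeR adjusted p = 0.000111), under the fold threshold. Fgfr3 lies on chromosome 5 from 33721724 to 33737068, on the plus strand.

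Of 13 SC markers tested, Prox1 alone was called lower (log2 fold change -1.46), with 0 called higher, beside 6.6% and 2.24% of all genes. The 13 markers had a median of -0.05 and a summed level of 1322.0 to 1354.5 CPM in control and 1378.2 to 1534.3 CPM after neomycin. Gjb2, a gap junction gene named after its values were seen, was the most abundant of them at 553.6 CPM in control and 641.9 CPM after neomycin. At an adjusted p under 0.05 (edgeR) 3 of the 13 markers were lower and 2 higher, beside 16.1% and 12.9% of all genes. The 3 markers of the pillar region summed to 200.4 to 223.4 CPM in control and 232.7 to 248.7 CPM after neomycin. Among them S100b, a calcium-binding protein, was called higher (0.88), while Npy had -0.45 and Cd44 had -0.00 (log2 fold changes). The part of SC number in the Fgfr3 result was not tested.

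The tested genes nearest to Fgfr3 over the 6 samples were Inpp5f at a distance of 0.0842, Phtf2 at 0.11 and Tppp at 0.111. Inpp5f, a phosphoinositide phosphatase, was at 39.4 CPM in control and 24.9 CPM after neomycin.

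Fgfrl1, the receptor without a kinase domain, had the highest level of the receptors. It had 262.7, 259.4 and 292.4 CPM in control and 212.9, 215.2 and 204.6 CPM after neomycin. All neomycin samples lay below the controls, and control replicate 3 stood above its group. The log2 fold change was -0.36 (standard error 0.08, 95% interval -0.53 to -0.20, edgeR adjusted p = 0.00433), a 1.29-fold fall that stayed below the threshold. Fgfrl1 lies on the plus strand of chromosome 5 from 108694229 to 108706950.

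Fgfr1 and Fgfr2 did not pass the test. Fgfr1, the receptor needed by sensory progenitors, had 226.6, 207.8 and 217.2 CPM in control and 212.1, 202.3 and 204.2 CPM after neomycin. These ranges overlapped, and the 95% interval of the log2 fold change of -0.07 ran from -0.23 to 0.08 (adjusted p = 0.455, edgeR), turning to 0.07 with the length correction. An opposite-strand gene, Gm16159, shares 164 exon bases with Fgfr1 and was under 0.1 CPM in every sample.

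Fgfr2, the receptor of Fgf10 and related ligands, had 139.3, 119.4 and 99.0 CPM in control and 101.4, 101.2 and 115.5 CPM after neomycin. The control samples were spread widely, with replicate 3 below all neomycin samples. The log2 fold change was -0.17 (95% interval -0.41 to 0.07, adjusted p = 0.261, edgeR). It was -0.28 (adjusted p = 0.0351) without control replicate 3 and -0.035 without control replicate 1 (adjusted p = 0.828, both edgeR).

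Fgfr4, the fourth kinase receptor, was not among the 10 genes and moved the other way. It had 31.2, 26.1 and 25.4 CPM in control and 40.7, 35.9 and 37.1 CPM after neomycin. All neomycin samples were above all controls. Its log2 fold change was 0.46 (standard error 0.10, 95% interval 0.25 to 0.67, edgeR adjusted p = 0.00449), a fold of 1.37.

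**Figure D2:**
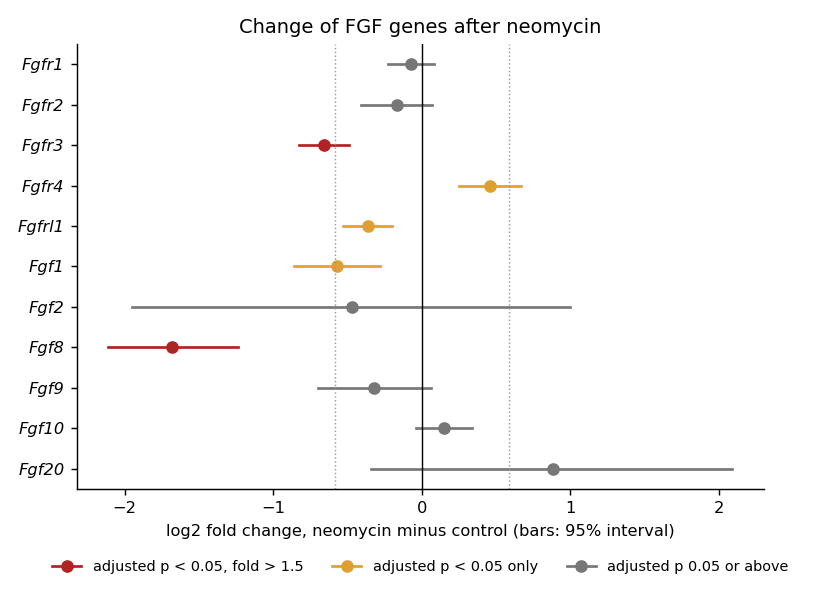
Log2 fold change of neomycin minus control for the 10 FGF genes and Fgfr4, with 95% intervals from the edgeR fit; dotted lines mark a fold change of 1.5 in either direction and color marks the result of the test. Fgf8 at -1.68 and Fgfr3 at -0.66 lie past the line, Fgf1 at -0.57 lies just inside it, and the intervals of Fgf2 and Fgf20 are the widest.

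Per kilobase, Fgfrl1 stood at 104.8 ± 7.02 CPM per kb in control, Fgfr1 at 41.6 ± 1.8, Fgfr3 at 37.5 ± 1.52, Fgfr2 at 23.3 ± 3.94 and Fgfr4 at 8.29 ± 0.962 (SD, n = 3), with no overlap between neighbors. After neomycin Fgfrl1 was at 81.4 ± 2.14, Fgfr1 at 39.5 ± 0.997, Fgfr3 at 23.7 ± 2.02, Fgfr2 at 20.7 ± 1.6 and Fgfr4 at 11.4 ± 0.749 CPM per kb. The order was the same, but Fgfr3 and Fgfr2 now overlapped, with Fgfr2 the higher in neomycin replicate 3.

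As a share of the summed receptor level per kilobase, Fgfr3 made up 16.5%, 18.5% and 17.3% in control and 14.0%, 13.8% and 12.4% after neomycin. The mean share went from 17.4 ± 0.994% to 13.4 ± 0.902%, a difference of -4.02 percentage points. Fgfr4 went from 3.85 ± 0.433% to 6.44 ± 0.344% and Fgfr1 from 19.3 ± 0.588% to 22.4 ± 0.376%. For these 3 receptors the groups did not overlap, and an exact two-sided permutation test gave p = 0.1, the smallest that 3 samples against 3 allow (adjusted p = 0.167 over the 5 receptors). Fgfrl1 made up 48.6 ± 2.50% and 46.0 ± 0.791% (exact permutation p = 0.2, adjusted 0.25) and Fgfr2 10.8 ± 1.88% and 11.7 ± 1.12% (exact permutation p = 0.5, adjusted 0.5). Shares sum to the whole in each sample, so a lower share of one receptor raises the others.

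**Figure D3:**
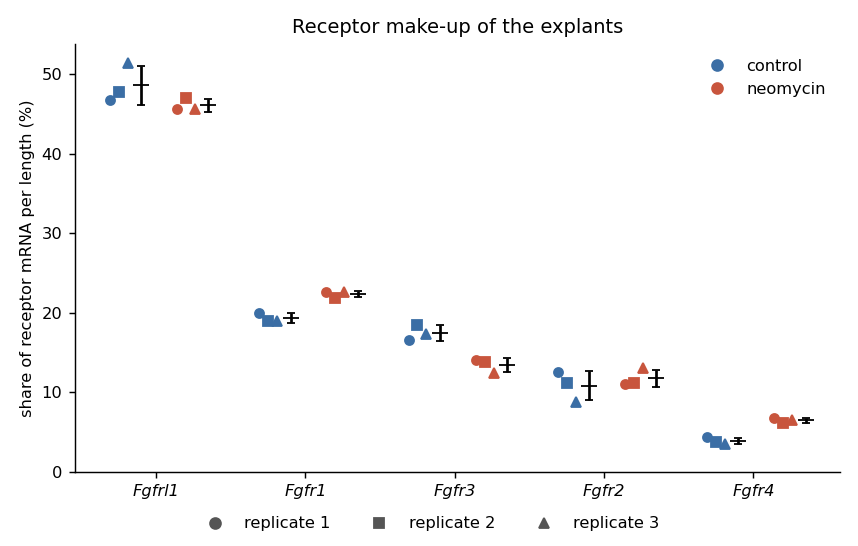
Share of each receptor in the summed counts per kilobase of exon of the 5 receptor genes, in percent, for every sample, with control in blue, neomycin in red and mean ± SD in black (n = 3). Fgfr3 falls from 17.4% to 13.4% and Fgfr4 rises from 3.85% to 6.44%, each without overlap.

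Feedback inhibitors and ETS factors are switched on by ERK downstream of FGF receptors. Of 13 tested, 7 were called lower and 0 higher, beside 6.6% and 2.24% of all genes. At an adjusted p under 0.05 (edgeR), 11 were lower, beside 16.1% of all genes. All 13 log2 fold changes were below 0, except Il17rd with the length correction, with a median of -0.75 against -0.004 for all genes. With single samples left out, Spry1, Spred1, Spred3 and Dusp5 reached an adjusted p above 0.05 in some fits (edgeR), up to 0.222 for Spred1. With the length correction Spred1 was at -0.058 (edgeR adjusted p = 0.674). These inhibitors were named after their values were seen, and the list itself was chosen with earlier results of these data known. The ETS factors Etv5 (56.2 ± 3.15 to 33.4 ± 0.937 CPM), Etv1 (19.7 ± 1.95 to 9.70 ± 0.862 CPM) and Etv4 (34.7 ± 2.42 to 20.0 ± 4.33 CPM) had log2 fold changes of -0.75, -1.02 and -0.79. Dusp6, the phosphatase that inactivates ERK, went from 58.8 ± 9.04 to 33.5 ± 3.20 CPM (-0.81). Spry4, a Sprouty inhibitor of RAS signaling, went from 19.6 ± 2.02 to 10.2 ± 2.06 CPM (-0.94), and its relative Spred2 from 13.6 ± 2.41 to 6.58 ± 1.23 CPM (-1.04). The adjusted p of these 6 genes lay between 2.75e-05 and 0.00107 (edgeR). The other called gene, Dusp4, named after its values were seen, had the largest fall of the list. It went from 8.82 ± 2.23 to 3.54 ± 1.11 CPM (-1.32, edgeR adjusted p = 0.00161). The remaining inhibitors included Spry2 and Il17rd, named after their values were seen, whose groups overlapped at log2 fold changes of -0.08 and -0.09 (adjusted p = 0.519 and 0.5, edgeR), the latter 0.195 with the length correction. Other growth factor receptors also act through ERK, and which receptor these transcripts followed was not tested.

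Among 18 adaptors and kinases between the receptors and ERK, 0 were called by edgeR, DESeq2 or limma-voom, and 9 had an unadjusted p under 0.05, of which 7 were lower. At an adjusted p under 0.05 (edgeR), 5 were lower and 1 was higher, with a median log2 fold change of -0.10. By the same rule 16.1% of all genes were lower, 12.9% were higher and 29% passed in either direction. Named after their values were seen, the lower ones were the adaptor gene Frs2, the exchange factors Sos1 and Sos2, the phospholipase Plcg1 and the kinase Braf, with log2 fold changes from -0.47 to -0.29, and the higher one was Hras at 0.27.

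Of 26 co-receptor, heparan sulfate and FGF-binding genes tested, 2 were called lower and 0 higher, with a median of -0.12. Of all genes 6.6% were called lower, so that by this rule the share of the list was near that of all genes. Without the fold threshold it was not near on the lower side. At an adjusted p under 0.05 (edgeR), 9 of the 26 were lower and 1 was higher, beside 16.1% and 12.9% of all genes. The called genes were Ndst1, an enzyme that sulfates heparan sulfate, at 114.3 ± 19.1 CPM in control and 71.0 ± 12.4 CPM after neomycin (log2 fold change -0.69, edgeR adjusted p = 0.0026), and Flrt1, a membrane protein that binds FGF receptors, at 6.34 ± 1.58 and 3.64 ± 0.36 CPM (-0.81, adjusted p = 0.00838). Neither was past both thresholds without control replicate 1, when 0 genes of the list were called. Flrt1 alone was called without neomycin replicate 3 and with the length correction, and without control replicate 3 there were 3 lower calls and 1 higher.

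Of the other FGF genes and Fgfr4, 12 of 17 were tested and 0 were called in the main edgeR fit, beside 8.84% of all genes. DESeq2 called 1 and limma-voom 1. At an unadjusted p under 0.05 (edgeR) there were 2, 1 lower and 1 higher. The lower one was Fgf23, which DESeq2 and limma-voom called and which is named after its values were seen, at -1.33 on the log2 scale (standard error 0.51, edgeR adjusted p = 0.068). Fgf23 was also called by edgeR with no filter on low counts, with the replicate block or without neomycin replicate 1. Fgf21, named after its values were seen, had -0.64 (edgeR adjusted p = 0.185). Fgf21 was called lower with the replicate block, with the length correction or without neomycin replicate 3. Fgfr4 was the only one with an adjusted p under 0.05 (edgeR), and the median log2 fold change was -0.02.

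**Figure D4:**
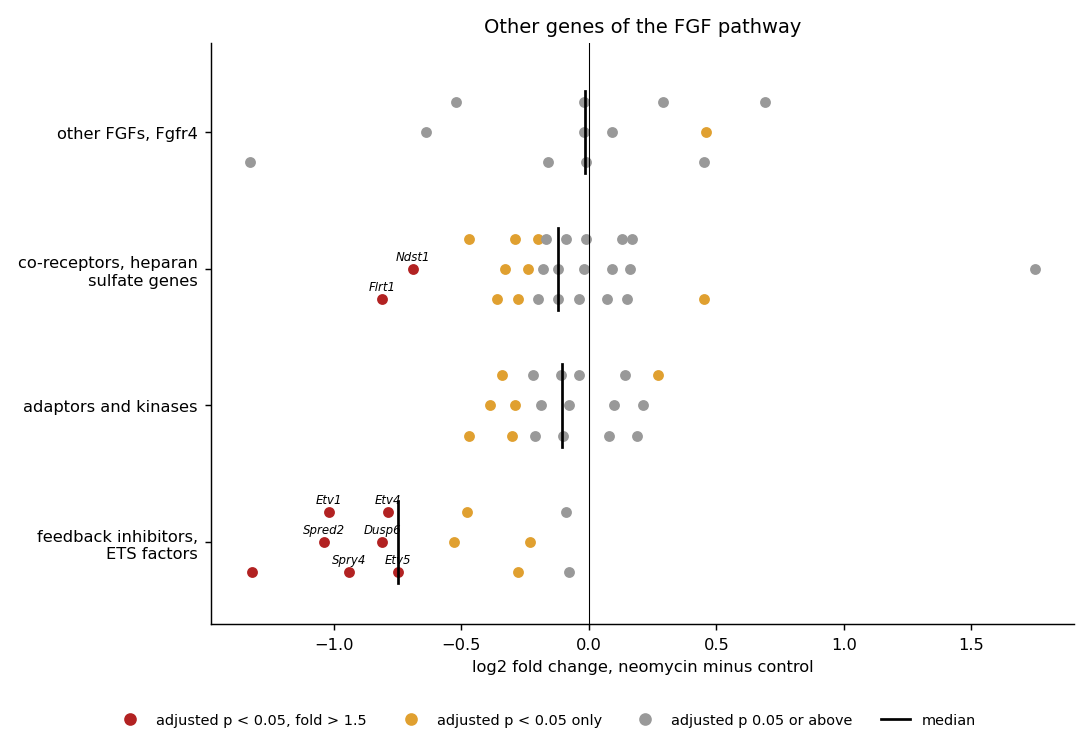
Log2 fold change, neomycin minus control, of the tested genes of 4 lists of FGF pathway genes, 1 point per gene with the median as a black bar, color for the result of the edgeR test and names for up to 6 called genes per list. The feedback list sits to the left of 0 in all 13 genes, Il17rd not so with the length correction, with a median of -0.75, while the medians of the other lists are -0.12, -0.10 and -0.02.

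Markers of other cell types were also read beside the FGF genes. Of all genes tested, 6.6% were called lower and 2.24% higher. Of 7 endothelial markers 5 were called lower, with Cdh5 (-2.05), Pecam1 (-2.71) and Flt1 (-1.84, log2 fold changes) at the smallest p, while the summed level of the list was 279.6 to 312.0 CPM in control and 266.6 to 317.2 CPM after neomycin, most of it Emcn at 252.0 and 273.1 CPM. Neuron markers had 4 of 8 called lower, among them the neurofilament gene Nefl, at 143.9 to 225.2 CPM and 125.0 to 153.6 CPM. Of the called ones, Nefh was not called with DESeq2, without control replicate 1 or without neomycin replicate 3. Syt1 was higher at a log2 fold change of 0.37 (edgeR adjusted p = 0.0346), and Ntrk3 was called higher with the length correction. Nefh, Syt1 and Ntrk3 were named after their values were seen. Cartilage markers had 2 of 5 called higher, Ucma (1.14) and Matn1 (0.92), at 59.1 to 69.1 CPM and 112.8 to 117.4 CPM. Macrophage markers had 2 of 8 called higher, at 55.3 to 64.6 CPM and 68.3 to 85.7 CPM, but 0 were called without control replicate 1, without neomycin replicate 2, with library totals only or with the length correction. For the greater epithelial ridge 2 of 7 were called higher, Tectb and Crabp1, at 10249.4 to 11997.9 CPM and 13194.9 to 16658.9 CPM. In that list 0 were called without control replicate 2 or with the length correction, 1 was called higher without neomycin replicate 1 or 2 or with library totals only, and Otogl, named after its values were seen, was called lower with limma-voom, library totals only, the replicate block, and without control replicate 3 or neomycin replicate 1. For mesenchyme 1 of 9, Col1a1, was called lower and 1, Dcn, higher, the latter not without control replicate 2, with library totals only or with the length correction, at 5899.9 to 6443.0 CPM and 6321.3 to 6540.6 CPM. For Schwann cells 0 of 8 were called by edgeR, with 1 at an unadjusted p under 0.05, at 523.2 to 579.2 CPM and 500.3 to 536.0 CPM. Of all the markers listed, none was at 0 in every sample, and the part of these cell types in the changes of the FGF genes and feedback genes was not tested.

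**Figure D5:**
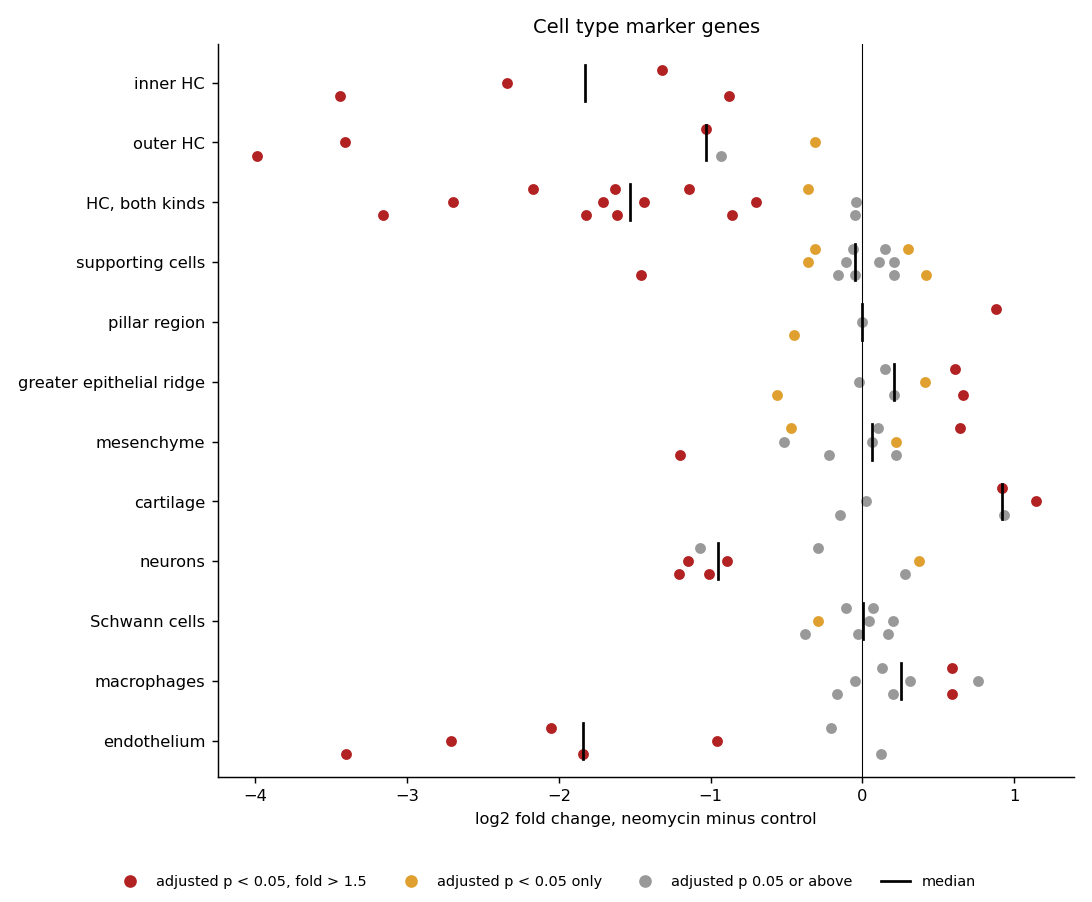
Log2 fold change, neomycin minus control, of the tested marker genes of 12 lists of cochlear cell types, 1 point per gene with the median as a black bar and color for the result of the edgeR test. Inner HC markers, with a median of -1.83, lie to the left of 0, and SC markers have a median of -0.05. The medians of endothelium, of HCs of both kinds and of outer HCs are -1.84, -1.53 and -1.03.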

How the data were processed

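RNA was sequenced from 3 control and 3 neomycin samples. According to the submitters' processing notes, the authors called bases with CASAVA 1.8, trimmed reads with Trimmomatic 0.23, aligned them to mm10 with HISAT2 and counted them per gene with HTSeq. The deposited values are raw counts of reads for each gene symbol, not normalized. The strand setting, the treatment of multi-mapped reads and the annotation date are not given in the sources used here. The labels do not say that samples of a group came from separate cultures, so p-values measure only the spread between these samples. Replicates differed by more than sampling noise (mean chi-square per gene 13.4 to 44.9), and no sample was counted as a repeat of another.

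In R 4.3.3, counts were scaled by TMM, filtered with filterByExpr and tested with edgeR 4.0.16 (quasi-likelihood test, Benjamini-Hochberg adjustment), with the thresholds of the study's methods, which used DESeq2. Standard errors were derived from the fold change and its F statistic. Exon lengths came from the GENCODE M21 basic annotation of the same build, by symbol or older symbol, for 99.2% of tested genes, and positions and start regions from RefSeq for GRCm38.p6, with entries for 6 of the 10 genes. Windows of 200 bases were searched on both strands. Receptor shares were compared by exact permutation in scipy 1.17.1.

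The genes and lists were chosen with earlier results of these data known. All 10 FGF genes are named, with Fgfr4, genes that overlap an FGF gene, up to 6 called genes per pathway list and up to 3 examples per marker list by smallest p, and the 3 nearest genes for each called FGF gene. Npy, Cd44 and Emcn were named after their values were seen. Alternatives were DESeq2 1.42.0, limma-voom (limma 3.58.1), other scalings, filters and thresholds, the replicate number as a block, removal of a lowess trend (span 0.3) on exon length, and each sample left out in turn. The code was tested on simulated data. Figures were drawn with matplotlib 3.10.9.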

Additional observations from a re-analysis of the deposited data

How the results depend on the processing

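Over 148 alternative values for the 10 FGF genes, 142 kept the direction and the result of the call, which takes both thresholds together. Among the 142 were 2 that newly had an adjusted p under 0.05 (edgeR) without the fold. They were Fgfr2 without control replicate 3 (0.0351) and Fgf9 without neomycin replicate 3 (0.0403). The 4 that were newly called were all of Fgf1, whose log2 fold changes ran from -0.67 to -0.43 over its alternatives. Fgfr3 no longer passed 1.5-fold with the gene length correction, and Fgfr1 turned from -0.07 to 0.066 there, as Il17rd of the feedback list turned from -0.09 to 0.195 (log2 fold changes). That correction left 1 FGF gene called, and a threshold of adjusted p alone (edgeR) gave 4 of them and 4629 of all genes, in place of 2 and 1413. The cause of the length effect was not tested. With each sample left out in turn, 2 to 3 FGF genes and 1037 to 1672 of all genes were called, the highest without control replicate 3. Fgf8 was called under every alternative run, at log2 fold changes of -1.92 to -1.62. The difference in Fgfr2 share ran from -0.0885, without control replicate 3, to 1.77 percentage points, and that in Fgfrl1 share from -3.51, without control replicate 1, to -1.13, without control replicate 3.

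With the replicate number as a block, 1465 genes and 2 FGF genes were called. The labels state no pairing, the same-numbered samples had correlations of 0.165, 0.026 and 0.095 of their deviations from the group means, not all above 0.1, and the numbers were therefore not taken as pairs, although 5 of the 6 samples correlated best with their own number. Fgf2 and Fgf20 rest on 4 to 35 counts per library, and all comparisons on 3 values per group.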
